A study of Homo sapiens with 7 samples.

Results

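In the Kasumi-1 genome, 3331 peaks of AML1 lay at positions that the fusion protein AML1-ETO did not share. They were taken from the AML1 peak list as the windows on nuclear chromosomes with no base in common with any AML1-ETO window, and they made up 28.5% of the 11686 nuclear AML1 windows (11692 windows in all). The other 8355 AML1 windows overlapped an AML1-ETO window and served as the comparison. Kasumi-1 is an established myeloblast line, grown from peripheral blood, that carries the t(8;21) translocation and expresses both proteins, and all libraries came from this line in log-phase growth. ChIP-seq, which recovers and sequences the DNA bound to a protein or histone mark, was carried out for AML1, AML1-ETO, the co-repressor N-CoR, the co-activator p300 and H3K4me3. Biological replicates had been pooled before peak calling, so that 1 list of 100 bp windows centred on peak summits exists per antibody. The other lists held 18087 (AML1-ETO), 10004 (N-CoR), 11020 (p300) and 19632 (H3K4me3) windows, with no height, score or read count, and the depth behind a single peak is therefore unknown. No error between replicates can be given. All 95% intervals, exact Clopper-Pearson for shares and Newcombe for differences, cover counting error over peaks only, and each difference was also counted over the 23 chromosomes with AML1 windows.

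AML1, also called Runx1, is a transcription factor that binds DNA through its runt domain and is required for the formation of blood cells. AML1-ETO keeps this domain and replaces the rest of AML1 with the ETO protein, which binds co-repressors such as N-CoR, whereas p300 acetylates histones and is recruited by many activators. H3K4me3 marks the promoters of active genes. The AML1 antibody recognises the C-terminus of AML1, which the fusion lacks, and AML1-ETO was recovered with an ETO antibody. Because the AML1 and AML1-ETO positions define these sites, their separation is not a result, while the rule that picks them makes no use of N-CoR, p300, H3K4me3, gene annotation or DNA sequence.

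A first set of windows shows the Runx consensus (TGTGGT, or ACCACA on the printed strand, in capitals) at AML1 windows without AML1-ETO. They are the lowest-numbered such windows in 4 of 5 classes of co-regulator and H3K4me3 overlap, each named by the protein-coding gene with the nearest start, and the plus strand of GRCh37 is printed.
KIT, chr4:55554594-55554693: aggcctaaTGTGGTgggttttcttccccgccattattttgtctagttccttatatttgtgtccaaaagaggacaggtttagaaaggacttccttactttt
CSK, chr15:75079956-75080055: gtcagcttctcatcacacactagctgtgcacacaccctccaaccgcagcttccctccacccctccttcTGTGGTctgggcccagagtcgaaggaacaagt
UBE2L5, chr13:30969703-30969802: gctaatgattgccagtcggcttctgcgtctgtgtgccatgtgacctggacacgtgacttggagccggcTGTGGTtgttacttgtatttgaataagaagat
PRKAG2, chr7:151453291-151453390: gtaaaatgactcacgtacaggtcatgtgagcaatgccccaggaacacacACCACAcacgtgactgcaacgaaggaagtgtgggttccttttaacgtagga
The KIT window lay in an intron of KIT, which encodes the stem cell factor receptor, at -15246 bp from the nearest start, an internal one of the same gene. Its summit was 29 bp from an N-CoR summit and 25 bp from a p300 summit. The nearest AML1-ETO summit was 360 bp away. The CSK window overlapped p300 only and lay at -879 bp from the start of CSK, a kinase that restrains Src family kinases. The UBE2L5 and PRKAG2 windows overlapped neither co-regulator. PRKAG2 encodes a regulatory subunit of AMP-activated kinase, and its window lay in an intron, 82897 bp from the nearest AML1-ETO summit. The UBE2L5 and PRKAG2 windows also hold the letters cacgtg, left in lower case here.

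A second set shows the sequence CACGTG, in capitals, at 9 of the 10 lowest-numbered sites. CACGTG is an E-box, read the same on both strands, and is known as a binding sequence of basic helix-loop-helix factors of the USF, MYC and MiT/TFE families, none of which was assayed. It was added to the motifs after the windows had been seen. The LAMP1 window is given whole and the others as 26 bases around the match nearest the summit.
LAMP1, chr13:113951337-113951436: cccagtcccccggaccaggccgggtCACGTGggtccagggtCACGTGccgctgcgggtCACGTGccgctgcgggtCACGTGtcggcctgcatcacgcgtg
AP5Z1, chr7:4815207-4815232: tgtgatgcggCACGTGacgcagccac
ATP6V0D1, chr16:67515104-67515129: gcaagcgcctCACGTGaccataaggg
CLCN6, chr1:11866218-11866243: tcgagagggcCACGTGaccgtcccgg
NARF, chr17:80455120-80455145: cgccggccgtCACGTGggaggtcacg
ATG3, chr3:112280812-112280837: actctcccggCACGTGacgtgagaaa
KAT5, chr11:65479478-65479503: cggtgggcgtCACGTGacggactcag
FAM118B, chr11:126081606-126081631: ccctgcaggtCACGTGgtgcggggtg
UBE2Q1, chr1:154531296-154531321: tggcctcctcCACGTGatctctccgt
All 10 of the lowest-numbered windows held CACGTG, and none held the Runx consensus. The LAMP1 window contained 4 copies within 100 bp, 167 bp upstream of the start of LAMP1, a major protein of the lysosomal membrane.

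AML1 sites without AML1-ETO were mostly free of both co-regulators. N-CoR overlapped 550 of the 3331 sites, or 16.5% (95% interval 15.3 to 17.8), where 47% of all nuclear AML1 windows were overlapped by N-CoR. Among AML1 sites that overlapped AML1-ETO the share was 59.2%, a difference of -42.7 percentage points (95% interval -44.3 to -41.0) that had the same sign on 23 of 23 chromosomes. Its size depended on the position in the deposited AML1 list, and was -51.4 points in the first 50% of the list and -28.0 points in the later 50%. p300 overlapped 600 sites, or 18.0%, against a background of 26.4% over all nuclear AML1 windows. The share was 29.8% of sites with AML1-ETO, a difference of -11.8 points (95% interval -13.4 to -10.1), lower on 23 of 23 chromosomes. This difference too was smaller in the later 50% of the list than in the first 50%. Neither co-regulator was found at 2382 sites, or 71.5%, which compares with 46.2% of all nuclear AML1 windows and 36.2% of sites with AML1-ETO.

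The class with p300 and no N-CoR went the other way. It held 399 sites, or 12% of those without AML1-ETO and 4.61% of those with it, a difference of 7.37 points (95% interval 6.21 to 8.59; the same sign on 21 of 23 chromosomes). Near H3K4me3 the class held 23.6% and 16.1% (difference 7.52 points, lower 95% limit 4.83; the same sign on 19 of 23 chromosomes). Away from the mark it held 1.85% and 1.25%. There the difference was 0.599 points (95% interval -0.0107 to 1.38; the same sign on 13 of 23 chromosomes), so no difference was resolved. N-CoR without p300 was found at 349 sites (10.5% against 34.0%), and both proteins were found at 201 sites (6.03% against 25.2%, with 19.7% over all nuclear AML1 windows). The direction for p300 depended on the width of the p300 window. A p300 summit that was too far away to overlap, at 100 to 500 bp, lay beside 20.2% of sites without AML1-ETO and 6.92% of sites with it (difference 13.3 points, 95% interval 11.9 to 14.8). Near H3K4me3 these shares were 40.0% and 23.6% (difference 16.4 points). Away from the mark they were 3.08% and 2.07% (difference 1.01 points, 95% interval 0.212 to 1.98). With p300 windows that reached 250 bp to either side, the difference in overlap was 1.54 points (95% interval -0.400 to 3.49). Where p300 did overlap, the median distance between summits was 41.5 bp without AML1-ETO and 29 bp with it.

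**Figure D1:**
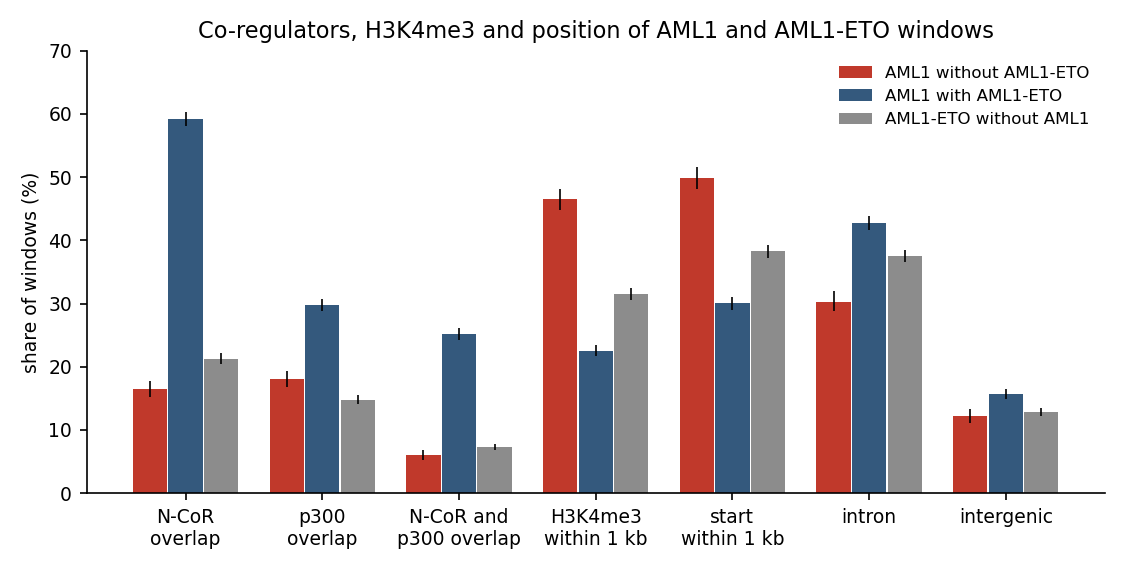
Share of windows (%, bars with exact 95% intervals) that overlapped N-CoR, p300 or both, lay within 1 kb of an H3K4me3 summit or of a transcription start, or fell in introns or intergenic sequence, for AML1 windows without AML1-ETO (n = 3331, red), AML1 windows with AML1-ETO (n = 8355, blue) and AML1-ETO windows without AML1 (n = 9732, grey). The red bars are below the blue ones for N-CoR (16.5% and 59.2%) and above them for H3K4me3 (46.5% and 22.6%).

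Sites without AML1-ETO lay at promoters more often than sites with it. An H3K4me3 summit was present within 1000 bp of 1548 sites, or 46.5% (29.4% of all nuclear AML1 windows), against 22.6% of sites with AML1-ETO, a difference of 23.9 points (95% interval 22.0 to 25.8) in the same direction on 23 of 23 chromosomes. A transcription start of GENCODE release 44 lay within 1000 bp of 1662 sites, or 49.9% (35.7% of all nuclear AML1 windows), against 30.0%, a difference of 19.9 points (95% interval 17.9 to 21.8). Among sites away from H3K4me3 the direction was the opposite, with a start near 12.8% and 14.6% (difference -1.79 points, 95% interval -3.50 to 0.0461). The median distance to the nearest start was 1021 bp without AML1-ETO and 4324 bp with it. For protein-coding genes, 1474 sites, or 44.3%, lay within 1000 bp of a start (29.9% of all nuclear AML1 windows; 24.2% with AML1-ETO), and 26.4% lay within 100 bp (12% with AML1-ETO). Fewer fell in introns (30.3% against 42.7%) or between genes (12.2% against 15.7%). Windows within 1000 bp of a start were not counted in these 2 classes, so more promoter sites leave fewer for them.

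The starts were mainly those of protein-coding genes. Of the 1662 promoter sites, 1349 had a protein-coding transcript as the nearest start, 256 a long non-coding RNA and 11 a microRNA. Protein-coding starts on both strands were present within 1000 bp of 277 sites, or 8.32% (4.07% of all nuclear AML1 windows), against 2.38% of sites with AML1-ETO, a difference of 5.93 points (95% interval 4.98 to 6.97). The summits tended to sit just upstream. Within 1000 bp of a protein-coding start, 73.8% (95% interval 71.5 to 76.0) were upstream of it, with a median position of -48 bp, and 64.8% (95% interval 62.6 to 66.9) of the sites with AML1-ETO were upstream, with a median of -35 bp.

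H3K4me3 divided the sites into a promoter set of 1548 and a set of 1783 away from the mark, and the p300 share differed between them. Near H3K4me3, p300 overlapped 32.5% of sites without AML1-ETO and 49.4% of those with it (difference -16.9 points, 95% interval -20.2 to -13.7), while N-CoR overlapped 16.7% and 52.6%. Away from H3K4me3, p300 overlapped only 5.44% and 24.1% (difference -18.6 points, 95% interval -20.1 to -17.1), and N-CoR 16.3% and 61.2%. At sites without AML1-ETO the N-CoR share was thus much the same on both sides of this division. Away from the mark 53.7% of the sites without AML1-ETO lay in introns, against 52.6% with it (difference 1.15 points, 95% interval -1.47 to 3.75). Between genes lay 21.3% and 19.1% (difference 2.19 points, 95% interval 0.112 to 4.37), so the lower shares over all sites did not hold there. The sites without AML1-ETO away from the mark lay at a median of 9063 bp from a start (6954 bp with AML1-ETO). Their mean G and C content was 46.1%, against 50.9% with AML1-ETO, and it was not tested whether base composition accounts for the motif differences given next.

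The Runx consensus TGTGGT, searched on both strands within 50 bp of the summit, was present in 1195 sites, or 35.9%, against 40.6% of all nuclear AML1 windows. Windows of the same width centred 1000 bp to either side of the sites held it in 6.38%, and the 100 bp before the start of 35116 RefSeq promoters (GRCh38.p14) held it in 4.49%. Sites with AML1-ETO held it in 42.5%, a difference of -6.61 points (95% interval -8.55 to -4.66), lower on 21 of 23 chromosomes. It was -3.02 points without windows that held CACGTG, -3.83 points without the first decile of the deposited list and 1.94 points (95% interval -0.568 to 4.47) in its later 50%. It also turned round once promoters were separated. Away from H3K4me3 the consensus was present in 56.5% of sites without AML1-ETO and in 49.4% of sites with it, a difference of 7.14 points (95% interval 4.52 to 9.73), higher on 21 of 23 chromosomes. Near H3K4me3 it was present in 12.1% and 18.8%, a difference of -6.70 points (95% interval -9.08 to -4.28). The second Runx sequence, TGCGGT, was found near H3K4me3 in 15.4% and 22.5% (difference -7.11 points, 95% interval -9.70 to -4.48), and 26.9% of promoter sites without AML1-ETO held either form.

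Matches lay close to the summit. Away from H3K4me3, the Runx consensus nearest to the summit was at a median of 14 bp from it in the 1008 sites that held one, and 19.7% of sites had a match in the 20 bp just past the summit, compared with 1.29% at 180 to 200 bp. Near H3K4me3 the highest 20 bp bin held 3.49% of sites without AML1-ETO and 5.68% of sites with it.

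**Figure D2:**
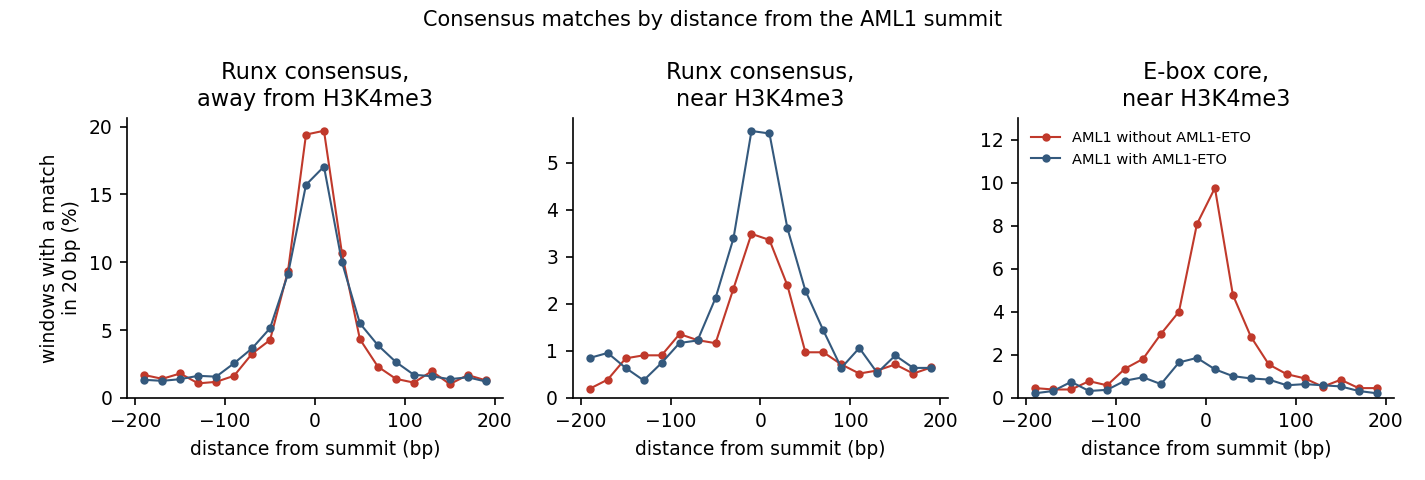
Share of AML1 windows (%) with a match in each 20 bp bin against distance from the summit (bp), without AML1-ETO (red) and with AML1-ETO (blue), for the Runx consensus away from H3K4me3 (left) and near it (middle) and for the E-box core near H3K4me3 (right). The scales of the 3 panels differ. The Runx peak reaches 19.7% in red on the left and 3.49% in the middle, and the E-box peak reaches 9.75% in red and 1.86% in blue.

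AGGAAG, called the ETS core here, is 1 form of the sequence bound by ETS factors such as PU.1, a regulator of myeloid differentiation. It was present in 982 sites, or 29.5% (37.7% of all nuclear AML1 windows; 10.5% of the flanking windows; 13.2% of RefSeq promoters over 100 bp), against 41.0% of sites with AML1-ETO, a difference of -11.5 points (95% interval -13.3 to -9.59). Near H3K4me3 the shares were 15.1% and 25.1% (difference -10.1 points, 95% interval -12.7 to -7.43), and away from it 42.0% and 45.6% (difference -3.56 points, 95% interval -6.13 to -0.952; lower on 13 of 23 chromosomes). The PU.1 sequence GAGGAA, which overlaps the ETS core in 5 letters, was found in 19.9% and 27.9% (difference -7.94 points, 95% interval -9.58 to -6.26). The ETS form CCGGAA was found in 9.97% and 8.13%, a difference of 1.84 points (95% interval 0.695 to 3.05). On either side of the H3K4me3 division its direction was that of the ETS core, with 16.8% and 18.6% near the mark (difference -1.82 points, 95% interval -4.37 to 0.753) and 4.04% and 5.07% away from it (difference -1.03 points, 95% interval -2.02 to 0.105). The C/EBP sequence TTNCNNAA was present in 20.3% and 24.2% of all sites (difference -3.83 points, 95% interval -5.45 to -2.16) and near H3K4me3 in 9.11% and 12.9% (difference -3.84 points, 95% interval -5.91 to -1.73). Away from the mark the direction was the opposite, with 30.1% and 27.4% (difference 2.64 points, 95% interval 0.287 to 5.06). The flanking windows over all sites held it in 22.2% without AML1-ETO and 20.7% with it. The C/EBP shares over all sites were thus close to those of the flanking windows.

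The sequences of NF-Y, of SP and KLF factors and of NRF1, which many promoters hold, were more frequent near H3K4me3 without AML1-ETO than with it. CCAAT, bound by NF-Y, was present in 16.2% of sites (10.6% of all nuclear AML1 windows; 8.31% with AML1-ETO) and near H3K4me3 in 22.5% against 10.1%, a difference of 12.4 points (95% interval 9.94 to 14.9), higher on 22 of 23 chromosomes. Unlike Runx, CCAAT was also common in flanking windows (12.5%) and in the 100 bp before RefSeq starts (18.1%). GGGCGG, bound by SP and KLF factors, was found near H3K4me3 in 33.6% and 28.0% (difference 5.63 points, 95% interval 2.53 to 8.74), and the NRF1 sequence in 3.94% and 1.86% (difference 2.08 points, 95% interval 0.965 to 3.29). The 100 bp before RefSeq starts held GGGCGG in 31.3% and the NRF1 sequence in 3.41%, close to the shares of the sites without AML1-ETO. Away from H3K4me3 the direction for GGGCGG was the opposite, with 2.41% and 3.99% (difference -1.58 points, 95% interval -2.37 to -0.640).

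Over all sites, the GATA sequence AGATAA was found in 2.46% without AML1-ETO and 3.97% with it (difference -1.51 points, 95% interval -2.16 to -0.806). Both shares were below those of the flanking windows, 6.18% and 5.35%. The Myb sequence AACNGNC was found in 14.4% and 16.1% (difference -1.73 points, 95% interval -3.13 to -0.275), against 10.3% and 9.96% of the flanking windows. The YY1 sequence AAGATGGC stood at 1.02% and 0.491% (difference 0.530 points, 95% interval 0.192 to 0.952). For YY1 the interval included 0 both near H3K4me3 (1.81% and 1.38%) and away from it (0.337% and 0.232%), and for GATA and Myb it did so away from the mark. For CREB (TGACGTCA, 0.660% and 0.407%) and the CTCF core (1.44% and 1.16%) the interval of the difference included 0, as it did on either side of the H3K4me3 division. AP-1 (TGANTCA) was found in 4.44% and 5.25% of all sites, again with 0 in the interval, and near H3K4me3 in 2.13% and 1.22% (difference 0.912 points, 95% interval 0.0532 to 1.85). The general E-box CANNTG, which includes CACGTG, was found in 42.1% and 41.4% of all sites (difference 0.641 points, 95% interval -1.33 to 2.63), but the directions on the 2 sides of the H3K4me3 division were opposite. Near the mark it was found in 42.8% and 30.5% (difference 12.4 points, 95% interval 9.15 to 15.6), higher on 23 of 23 chromosomes, and away from it in 41.4% and 44.7% (difference -3.21 points, 95% interval -5.78 to -0.605). Among windows near H3K4me3 that lacked CACGTG the shares were 25.5% and 25.9%. In all, 21 sequences were searched, and the intervals were not adjusted for their number.

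**Figure D3:**
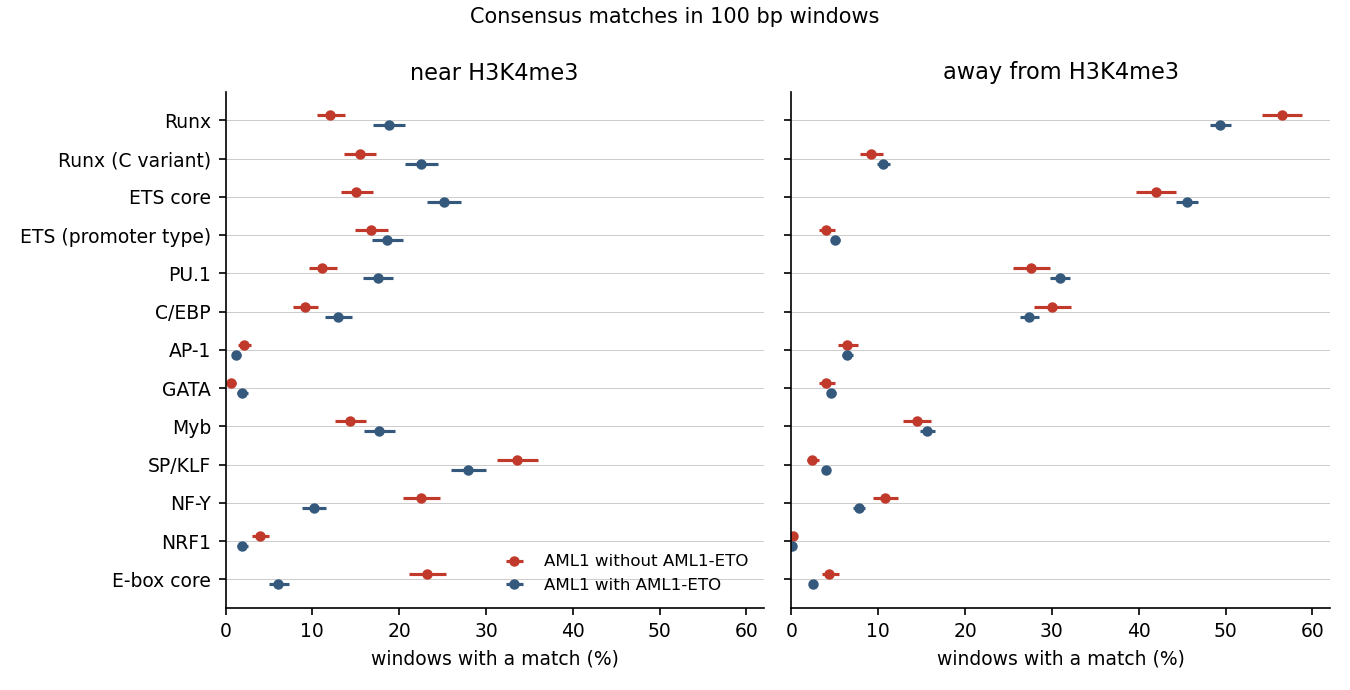
Share of AML1 windows (%, points with exact 95% intervals) with a consensus match within 50 bp of the summit, near H3K4me3 (left) and away from it (right), without AML1-ETO (red) and with AML1-ETO (blue). The Runx point in red lies below the blue one on the left (12.1% and 18.8%) and above it on the right (56.5% and 49.4%), and the E-box core, added after the windows were seen, stands at 23.3% and 6.10% on the left.

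CACGTG was present in 438 sites, or 13.1% (6.13% of all nuclear AML1 windows), in 3.33% of AML1 sites with AML1-ETO, in 1.04% of the flanking windows and in 3.43% of RefSeq promoters over the 100 bp before the start. As the sequence was chosen on these windows, the shares are given without a test. Near H3K4me3, 360 of the 1548 sites held it (23.3%; 6.10% with AML1-ETO), at a median of 12 bp from the summit, and 15.2% held the longer form CACGTGAC (3.02% with AML1-ETO). Away from H3K4me3 it was present in 4.37% and 2.52%. Of the 438 sites with CACGTG, 37, or 8.45%, held the Runx consensus, compared with 40.0% of the 2893 sites without it. Near H3K4me3 alone these shares were 3.61% and 14.6%, and away from the mark 30.8% of the 78 sites with CACGTG held the Runx consensus. p300 overlapped 32.4% of the sites with CACGTG and 15.8% of those without, but 82.2% of the former and 41.1% of the latter lay near H3K4me3. Near the mark alone, the p300 shares were 35.8% and 31.5%. Away from it p300 overlapped 13 of the 78 sites with CACGTG (16.7%, 95% interval 9.18 to 26.8), where it overlapped 5.44% of all such sites. N-CoR overlapped 12.6% of all sites with CACGTG and 17.1% of those without.

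As a check of the AML1 label, the Runx consensus was counted along the list, and few of the first sites held it. For windows that lack the consensus the lists do not show which protein held the DNA, and it was not tested whether a second protein was recovered with the AML1 antibody there. The windows carry numbers that follow the order of the deposited list, and neither the list nor the methods state what sets this order. The list was cut into 10 equal parts (deciles), and in the first of them 186 windows lacked AML1-ETO. Of these, 143 lay near H3K4me3, 118 held CACGTG (63.4%) and 30 held the Runx consensus (16.1%, 95% interval 11.2 to 22.2). The 984 windows with AML1-ETO in the same decile held CACGTG in 3.56% and the Runx consensus in 54.7%. The first 50 sites without AML1-ETO, with numbers up to 76, were still more uniform. Of these, 49 lay near H3K4me3, 47 held CACGTG, none held TGTGGT, 35 overlapped p300 and 9 overlapped N-CoR.

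Farther down the list the sites changed in kind. Sites without AML1-ETO made up 15.9% of the first decile, 11.6% of the second and 47.0% of the last. In the last decile 44.4% lay near H3K4me3, 7.64% held CACGTG and 32.7% held the Runx consensus, against 29.7% with AML1-ETO. Away from H3K4me3 the Runx share was 51.2% in the first decile (22 of 43 sites, 95% interval 35.5 to 66.7) and 49.3% in the last (151 of 306, 95% interval 43.6 to 55.1), with the highest share, 64.4% (95% interval 58.0 to 70.5), in the seventh. With AML1-ETO it was 59.6% (95% interval 56.1 to 63.0) in the first and 37.4% (95% interval 32.9 to 42.0) in the last.

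**Figure D4:**
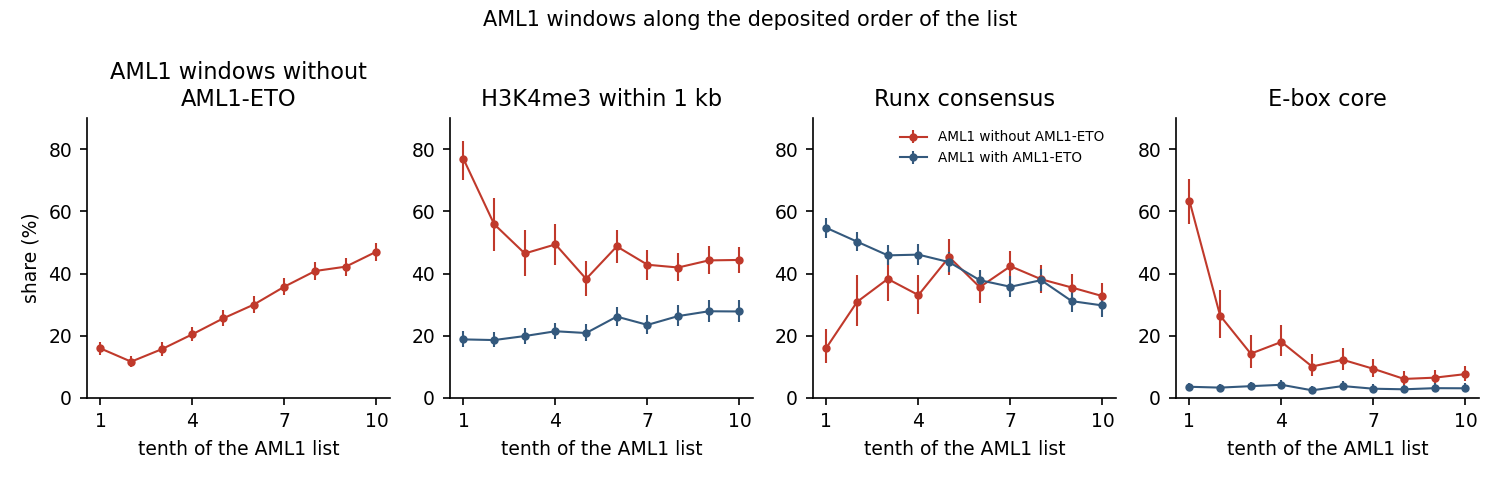
Shares (%, points with exact 95% intervals) in each decile of the AML1 list in deposited order. From left to right are the share of AML1 windows without AML1-ETO, and the shares near H3K4me3, with the Runx consensus and with the E-box core among windows without AML1-ETO (red) and with AML1-ETO (blue). In the first decile the E-box core is at 63.4% in red and 3.56% in blue, and the Runx consensus at 16.1% and 54.7%.

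The lowest-numbered sites of each class name the genes concerned. Sites with p300 and no N-CoR began with AP5Z1, a subunit of an adaptor complex for endosomal sorting (24 bp from the start), CLCN6, a late endosomal chloride transporter (17 bp), NARF, ATG3, an enzyme of autophagosome formation (9 bp), and HEXA, the alpha subunit of lysosomal hexosaminidase (13 bp). The NARF window was the exception in position, 12448 bp past the nearest protein-coding start and 156 bp from an H3K4me3 summit. The nearest AML1-ETO summit was 162 bp away for CLCN6, 114 bp for NARF and 132 bp for ATG3. It was 59982 bp away for AP5Z1 and 6909 bp for HEXA. Of the 399 sites in this class, 91.7% lay near H3K4me3, 28.8% held CACGTG and 8.77% held the Runx consensus.

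Sites with both co-regulators began with LAMP1, ATP6V0D1, a subunit of the lysosomal proton pump (18 bp from the start), UBE2Q1, a ubiquitin-conjugating enzyme (160 bp), MFSD1, a lysosomal membrane transporter (11 bp), and RRAGC, a GTPase that links amino acids to mTORC1 at the lysosome (128 bp). All 5 of their windows held CACGTG. The nearest AML1-ETO summit was 102 bp away for LAMP1 and 169 bp for ATP6V0D1. For MFSD1, RRAGC and UBE2Q1 it was 6834, 43929 and 61562 bp away. Of the 201 sites, 68.2% lay near H3K4me3, 13.4% held CACGTG and 13.4% held the Runx consensus. Sites with N-CoR and no p300 began with PIP4P1 (195 bp), CDKL3 (3 bp), CALHM3 (7913 bp), PTPN3 (16785 bp, in an intron) and PROSER2 (25204 bp), the first of which encodes a lysosomal lipid phosphatase. Their 349 sites lay near H3K4me3 in 35.0% and held the Runx consensus in 28.9%. Those of PIP4P1 and CDKL3 held CACGTG, and none of the 5 held TGTGGT.

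The 923 sites near H3K4me3 with neither co-regulator (27.7% of the total) began with FAM118B, KDM4C, a histone demethylase, CDK4, a kinase of the G1 phase (74 bp from a start), ZBTB40 and DDI2. All 5 windows held CACGTG, and in the class 22.4% held it and 14.5% held the Runx consensus. The KDM4C window lay 16608 bp upstream of KDM4C and 15 bp from the start of a non-coding RNA, LINC02851. The largest class, with 1459 sites (43.8%), lay away from H3K4me3 and had neither co-regulator. Runx was most frequent there, in 898 sites or 61.5%, and CACGTG was found in 4.18%. Its lowest-numbered sites were in NOVA2, PPARD, PRKAG2 and AKAP13, all in introns, and 15115 bp upstream of DNAH17. They had numbers from 226 to 424, and 1 of the 5, that of PRKAG2, held TGTGGT. The DNAH17 window narrowly missed overlap, with AML1-ETO, N-CoR and p300 summits 104, 106 and 100 bp away. For PPARD they were 297, 232 and 253 bp away. For NOVA2 and PRKAG2 the closest of these summits was that of p300, 23021 and 26816 bp away. For AKAP13 it was that of N-CoR, 79782 bp away.

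Counted by the nearest protein-coding start, the 3331 sites fell to 2888 genes, of which 2509 had 1 site, 324 had 2, 46 had 3 and 9 had 4. Of the 2888, 1121 (38.8%) were also the nearest gene of an AML1 site with AML1-ETO. Counted by the nearest start of any gene type, this held for 746 of 3103 genes (24.0%). The share over all genes is not given, so neither value is read as high or low. The 9 genes with 4 sites were UBASH3B, MBNL1, LRRK1, KLF6, ROBO1, TRAPPC9, SLC39A10, ADGRB3 and SMYD3. UBASH3B, a phosphatase that dampens receptor tyrosine kinase signalling, had 5 further sites with AML1-ETO, and its own 4 lay between 6378 and 164095 bp from the start with 1 Runx match. KLF6, a zinc finger factor of myeloid cells, had 4 sites of each kind, and 3 of its 4 without AML1-ETO held TGTGGT. MBNL1, a splicing regulator, had none with AML1-ETO, and 3 of its 4 held TGTGGT. All 4 sites nearest to ROBO1, an axon guidance receptor, held TGTGGT, away from H3K4me3 and at least 198981 bp from AML1-ETO. None of these 9 genes had a site below number 643.

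Over all 20136 protein-coding genes, 1786 (8.87%) had a site without AML1-ETO within 1000 bp of a start, and 2107 (10.5%) had an AML1 site with AML1-ETO. Both kinds of site were present at 136 genes, and this overlap was not compared with an expected number. Lists of genes of protein synthesis and turnover were above the first share, and all but the proteasome list were above the second as well. Of 39 proteasome subunit genes, 12 (30.8%) had a site without AML1-ETO, such as PSMD9, PSMD6, PSMA3 and PSMC5, and 3 (7.69%) had one with it. Of 88 ribosomal protein genes, 22 (25%) had one, such as RPL13A, RPL11 and RPLP2, 15 (17.0%) had one with AML1-ETO and 0 had both. The PSMC5 and RPLP2 windows were nearer to the starts of FTSJ3 and PIDD1. For translation factors, among them EIF5A2 and EIF4G1, the counts were 16 of 69 without and 14 with AML1-ETO. For splicing factors, among them HNRNPH2 and SF3B1, they were 19 of 72 and 19, and for mitochondrial ribosomal proteins 13 of 78 and 12. Cell cycle genes had 11 of 45, with CDK4, MCM7 and CDC6 among them, and 7 with AML1-ETO. Apoptosis genes had 4 of 32, including BAX and BCL2, and 7 with AML1-ETO.

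For the lists of myeloid genes the same 2 shares, 8.87% and 10.5% over all genes, are the background. Of 38 genes of myeloid receptors and signalling, 3 (7.89%) had a site without AML1-ETO, namely RAC2, a GTPase of the phagocyte oxidase, and the kinases BTK and SYK, and 16 (42.1%) had one with it. The BTK window was nearer to the start of RPL36A, a ribosomal protein gene, at 40 bp. Of 27 granule and phagocyte genes, 3 (11.1%) had a site without AML1-ETO, namely MPO, the granule peroxidase, SRGN, the granule proteoglycan, and LYZ, lysozyme, and 9 (33.3%) had one with it, with intervals that overlapped (2.35 to 29.2 and 16.5 to 54.0). Of 45 transcription factors of myeloid and stem cells, 6 (13.3%) had one without AML1-ETO, with KLF6, BCL6, MEIS1 and ZEB2 first in the list, and 10 (22.2%) had one with it, again with overlapping intervals. Of 33 co-regulator genes the counts were 5, with KAT5, RCOR1, TLE4 and MED1 among them, and 10. Of 24 T cell genes, 3 had an AML1 site without AML1-ETO, namely TCF7, a transcription factor, IL7R, a cytokine receptor, and CD8A, a co-receptor, and 0 had one with it, while 3 had an AML1-ETO site without AML1. B cell genes had 0 of 19 without and 4 with AML1-ETO, and megakaryocyte and erythroid genes 0 of 28 and 2. Histone genes (8 of 75), ZNF genes (46 of 508) and DNA repair genes (5 of 48, with APEX1, NBN, RAD51C and ATM, whose window was nearer to NPAT) were near the share of all genes. Lists of this size leave wide intervals, from 2.66% to 32.4% for the T cell genes, and no list was tested.

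Genes of the lysosome, gathered in 3 lists after the first named genes had been seen, are given as a description. Over all 20136 protein-coding genes, 1786 (8.87%) had a site without AML1-ETO, and 412 had one that held CACGTG. An AML1 site with AML1-ETO was present at 2107 genes (10.5%), and an AML1-ETO site without AML1 at 3048 (15.1%). Of 24 genes of the V-ATPase, the proton pump of the lysosome, 9 (37.5%) had a site without AML1-ETO, 7 with CACGTG, and 0 had an AML1 site with AML1-ETO, while 3 (12.5%) had an AML1-ETO site without AML1. They were ATP6V0D1, ATP6V0B, ATP6V1G1, ATP6V1H, ATP6V1C1, ATP6V0E1, ATP6V1E1, ATP6V1A and ATP6V1D. The summits lay between 1 and 58 bp from the nearest protein-coding start, which was that of the gene itself except for ATP6V1E1, whose window was nearer to BCL2L13. Of 57 genes of lysosomal enzymes and membrane proteins, 16 had one, among them MCOLN1, a calcium channel, CTSA and TPP1, proteases, and CLCN7, a chloride transporter, 12 with CACGTG, and 15 had a site with AML1-ETO. Of 51 genes of autophagy and lysosomal signalling, 16 had one, such as ATG3, RRAGC, UVRAG, VPS11 and LAMTOR1, 10 with CACGTG, and 9 had a site with AML1-ETO.

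Sites without AML1-ETO were not all far from the fusion protein. An AML1-ETO summit lay 100 to 500 bp away from 466 of the 3331 sites, or 14.0% (95% interval 12.8 to 15.2). Of all nuclear AML1 windows, 4.74% had any AML1-ETO summit at this distance. That share is no background for the 14.0%. Most of those windows overlapped AML1-ETO and by the rule already had a summit of it under 100 bp away. Of the 466, 164 had the nearest one at 100 to under 150 bp, 75 at 150 to under 200 bp, 92 at 200 to under 300 bp and 135 at 300 to 500 bp. A further 135 sites had it above 500 and up to 1000 bp away and 434 up to 10 kb away. Most lay farther away, 1436 (43.1%) at 10 to 100 kb and 860 (25.8%) beyond 100 kb.

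The neighbours of AML1-ETO differed from the distant sites in what they overlapped. N-CoR overlapped 138 of the 466 (29.6%, 95% interval 25.5 to 34.0) and 14.4% (95% interval 13.1 to 15.7) of the 2865 sites with no AML1-ETO summit within 500 bp. An H3K4me3 summit was near 61.2% and 44.1%, and the Runx consensus was present in 19.3% (95% interval 15.8 to 23.2) and 38.6% (95% interval 36.8 to 40.4). Beyond 100 kb, 49.2% held the Runx consensus, 32.3% lay near H3K4me3 and 10.3% overlapped N-CoR. CACGTG did not follow the distance in this way, with 12.9% at 100 to 500 bp and 13.2% beyond 500 bp. Of the 466 pairs, 250 lay within 1000 bp of a protein-coding start. In these promoters the AML1-ETO summit was downstream of the AML1 summit in 128 of 250 (51.2%).

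**Figure D5:**
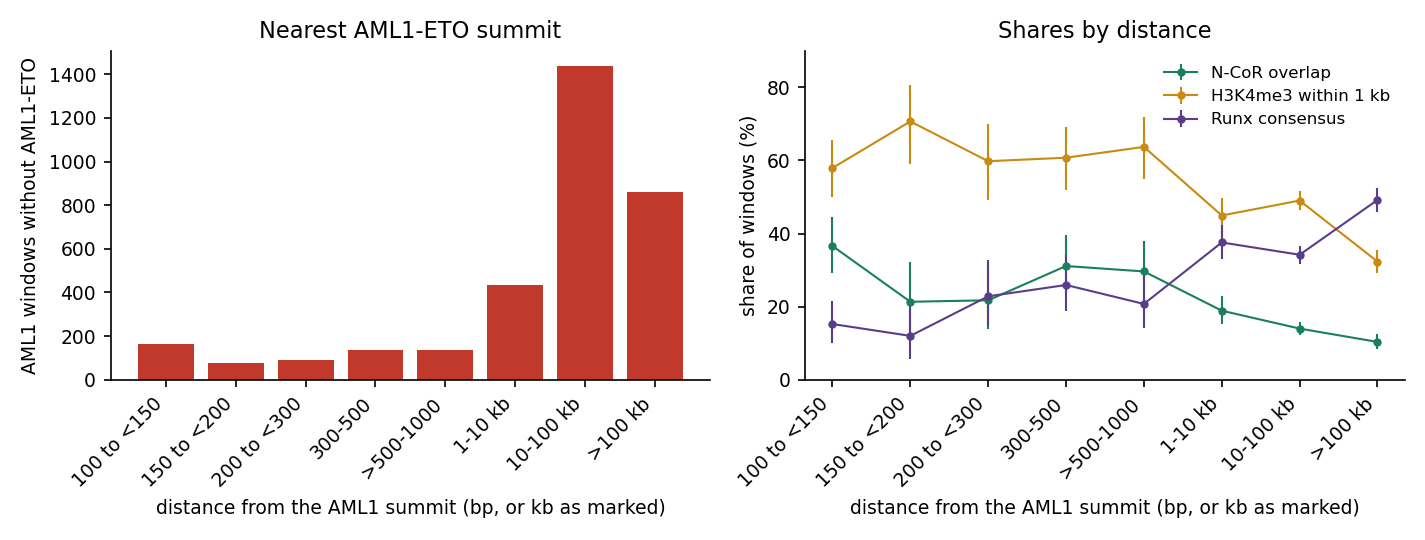
Left, number of AML1 windows without AML1-ETO by distance to the nearest AML1-ETO summit. Right, share of these windows (%, points with exact 95% intervals) that overlapped N-CoR (green), lay within 1 kb of H3K4me3 (orange) or held the Runx consensus (purple). N-CoR goes from 36.6% at 100 to under 150 bp to 10.3% beyond 100 kb, and the Runx consensus from 15.2% to 49.2%.

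On the edge of the definition, 47 sites had an AML1-ETO summit at 100 to under 110 bp and were kept, and 74 AML1 sites had one at 90 to 99 bp and were not. Of the 47, 19 overlapped N-CoR, 14 overlapped p300, 24 lay near H3K4me3 and 10 held the Runx consensus. Of the 74 the counts were 26, 22, 42 and 20. LAMP1 was among the closest sites kept, with an AML1-ETO summit at 102 bp.

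The sites were found on all 23 chromosomes with AML1 windows. Their share of the AML1 windows ranged from 21.1% on chromosome 22 (47 sites) to 34.0% on chromosome 12 (173 sites). On chromosomes 8 and 21, which carry the partner genes of the translocation, the shares were 26.1% (160 sites) and 26.6% (46 sites).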

How the data were processed

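The authors aligned the reads to GRCh37 (hg19), merged replicate libraries and used MACS to call peaks, once for each antibody. Per the labels, CASAVA 1.6, Bowtie 0.12.8 and MACS2 2.0.10.20131216 were used. The deposited lists give the position of a 100 bp window around each summit and a numbered name, with no score. Names in the N-CoR list begin with eto, and those in the p300 and H3K4me3 lists with aml1, so each list was taken from its sample label. Windows overlapped when they shared at least 1 bp. H3K4me3 and transcription starts (GENCODE release 44, lifted to GRCh37) were counted within 1000 bp of a summit, and motifs within 50 bp, on both strands. Genes were named by the lowest peak numbers in 5 classes, the 10 nearest genes with the most sites and, in each gene list, the 4 lowest-numbered sites. A few of these genes and sequences are not reported here. V-ATPase, lysosomal and autophagy genes beyond these 4, and the CACGTG sequences, were chosen after values were seen. The sites, motifs and gene lists were chosen with earlier results of these data known. Shares and differences were computed with Python 3.11.15, numpy 2.4.6, scipy 1.17.1 and pysam 0.24.0, and the counting was tested on simulated data. Libraries of H3K27me3 and of input DNA were not used here.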

Additional observations from a re-analysis of the deposited data

How the results depend on the processing

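For the differences between AML1 sites without and with AML1-ETO, all 36 alternatives for N-CoR and all 33 for H3K4me3 kept the direction, with 95% intervals on the same side of 0. So did 35 of 36 for p300, 35 of 36 for transcription starts, 34 of 36 for the Runx consensus and 36 of 37 for the ETS core. In each set 23 of the alternatives only left out 1 chromosome. These moved the N-CoR difference between -43.1 and -42.1 points and the Runx difference between -6.99 and -6.13. They say little about the choice of windows or motifs, and every change of direction given below fell among the other alternatives. CACGTG was chosen on these windows, and its alternatives are not read as support. The direction changed for p300 with windows of 250 bp to either side (1.54 points), for transcription starts away from H3K4me3 (-1.79 points), for the Runx consensus among the later 50% of the list (1.94 points) and away from H3K4me3 (7.14 points), and for ETS with CCGGAA (1.84 points), and the cause was not tested. Of these, the intervals excluded 0 for Runx away from H3K4me3 and for CCGGAA, but CCGGAA was lower without AML1-ETO both near H3K4me3 (-1.82 points) and away from it (-1.03 points), with 0 in both intervals. The other differences were larger in the first 50% of the list than in the later 50%, at -51.4 and -28.0 points for N-CoR, -13.4 and -6.24 for p300, 31.6 and 18.0 for H3K4me3, 26.3 and 14.9 for transcription starts and -15.7 and -7.26 for the ETS core. The number of sites was between 2730 and 4417 under other widths and distances, and 1042 in the first 50% of the list. Leaving out windows with CACGTG, or the first decile of the list, both added after seeing the data, moved the Runx difference to -3.02 and -3.83 points. No paired analysis was possible because the labels carry no replicate numbers and 1 pooled list exists per antibody. With neither reads nor scores, sites just under the threshold of the AML1-ETO list cannot be told from sites with no AML1-ETO, and a stricter threshold was not tried.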

Other observations

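CACGTG was also counted in the other lists, in windows that share no base with an AML1 window. It was held by 2.52% of the 7931 such p300 windows, 2.33% of the 4505 such N-CoR windows and 2.14% of the 9732 such AML1-ETO windows. Of the first 1000 AML1-ETO windows in their list, 15 held it. The sequence was chosen after the AML1 windows had been seen, and these shares are given with no test.

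Of the 6 AML1 windows that are not on nuclear chromosomes, none entered the counts.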
